A study of Mus musculus with 12 samples.

Results

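The lysosome genes described here are 37 mouse genes taken by symbol: hydrolases and their activators, lysosomal membrane proteins, and the 3 transcription factor genes Tfeb, Tfe3 and Mitf. All 37 were in the deposited count table, among 26305 genes with an identifier. Of these, 36 passed the filter on low counts and were tested among 11997 genes; Cd63, with 24 counts over all libraries, was not tested. Messenger RNA was profiled in EMRK1184luc, a B cell lymphoma line. EMRK1184 came from a female Eµ-Myc mouse, whose transgene puts Myc under the immunoglobulin heavy chain enhancer, and was infected with a lentivirus that carries luciferase. Every group carries both insertions, and all samples come from this 1 line. The 4 groups of 3 samples were given 5 µM WM-1119 or its vehicle DMSO, each for 3 or 6 days. WM-1119 is an inhibitor of members of the MYST family of histone acetyltransferases. By the design text replicates are biological, but no culture, day or batch is named, so a p-value here covers the spread among the samples as prepared.

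Lysosomes are acidic organelles in which hydrolases break down proteins, glycans, lipids and sulfate esters delivered by endocytosis and autophagy. Most of the soluble enzymes are tagged with mannose 6-phosphate in the Golgi and matured by proteases inside the organelle. Many lysosomal genes carry the CLEAR element, an E-box bound by TFEB, TFE3 and MITF, whose entry into the nucleus is restrained by the kinase mTORC1. In B cells, lysosomal proteases also process antigen and invariant chain for MHC class II presentation.

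The promoter sequences are shown first because the E-box CACGTG, the core of the CLEAR element, was present both at members that changed and at members that did not. RefSeq promoter windows of build GRCm38.p6, from 250 bases before to 50 after an annotated start, were found by symbol for 33 of the 37 members, 42 windows in all. CACGTG reads the same on both strands and lies inside the longer palindrome TCACGTGA, which was also counted. It was in 11 of the 42 windows (26.2%), against 10.3% of the 11715 windows of genes tested here and 7.15% of all 32851 windows. TCACGTGA was in 11.9% of the member windows, against 2% of the windows of tested genes. Among windows of members that rose with WM-1119 at either time, 6 of 22 held CACGTG (27.3%; Arsa, Ctsa, Ctsd, Gaa, Glb1 and Lgmn). Of the 4 windows of members that fell, those of Ctsl and Gla did, and of the 15 windows of members that passed the test at neither time, 3 did (20%; Cln3, Lamp1 and Mcoln1). For Ctsa, Lgmn and Cln3 the match was in the window of a later annotated start, and the window of the earliest start held none. The matching Lgmn window was the only one of the 42 whose bases after the start were in no GENCODE transcript of its gene. A match is a description of these letters and not of binding, which was not measured.

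Stretches of the windows before the start are given 5′ to 3′ on the gene's strand, with CACGTG in capitals. Lamp1, called at neither time, has 4 copies in the stretch just before its start.
Lamp1, chr8:13159088-13159160, plus strand: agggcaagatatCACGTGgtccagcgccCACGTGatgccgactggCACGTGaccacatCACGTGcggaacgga
Mcoln1 also passed the test at neither time.
Mcoln1, chr8:3500436-3500465, plus strand: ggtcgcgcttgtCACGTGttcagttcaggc
Gaa, Glb1, Ctsa and Arsa rose at both times, and Ctsd at 6 days. The Ctsa stretch lies before the later of its annotated starts.
Gaa, chr11:119267811-119267840, plus strand: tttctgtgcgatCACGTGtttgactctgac
Glb1, chr9:114401018-114401047, plus strand: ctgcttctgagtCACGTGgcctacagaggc
Ctsa, chr2:164833749-164833772, plus strand: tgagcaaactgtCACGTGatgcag
Arsa, chr15:89477425-89477452, minus strand: tcaactcagtgtCACGTGttgtctgctc
Ctsd, chr7:142387908-142387937, minus strand: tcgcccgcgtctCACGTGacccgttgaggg
Gla and Ctsl fell at both times.
Gla, chrX:134601215-134601244, minus strand: taagcgattgatCACGTGagcatctacgtc
Ctsl, chr13:64370739-64370768, minus strand: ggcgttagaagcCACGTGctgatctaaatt
The windows of Grn and Psap, the members with the largest rises in CPM, hold no CACGTG. The first 58 bases of the Grn window and the last 60 before the first Psap start are shown.
Grn, chr11:102430257-102430314, plus strand: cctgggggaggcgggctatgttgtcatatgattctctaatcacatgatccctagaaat
Psap, chr10:60277568-60277627, plus strand: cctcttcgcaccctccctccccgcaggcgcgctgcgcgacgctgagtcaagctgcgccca
The stretches shown for Ctsa, Ctsd and Gla lie wholly inside an annotated exon, counted over the exons of all genes. So do 15 of the 30 bases shown for Ctsl, 9 of the 30 for Mcoln1, and 1 base each for Arsa and Psap.

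Library totals ran from 14736267 to 41749357 counts. The largest was DMSO replicate 1 of 6 days, and the WM-1119 libraries of 6 days were the shallowest group (14736267 to 17563985). Members took 0.368% to 0.382% of the counts in DMSO libraries and 0.416% to 0.438% in WM-1119 libraries. Col1a1, a collagen gene, set 5 libraries apart at a limit of 1 CPM. It was at 6.10 and 2.08 CPM in DMSO replicates 1 and 2 of 6 days and at 6.83 and 12.9 CPM in the same-numbered WM-1119 replicates. WM-1119 replicate 2 of 3 days had 1.88 CPM. The other 7 libraries had 0.315 to 0.975 CPM, where CPM is the count after scaling all libraries to a common total. Of the other fibroblast markers, Col1a2, Col3a1, Col5a1, Thy1 and Fn1 split the libraries alike. Col6a1, Pdgfra, Pdgfrb, Dcn, Lum and Fbn1 did not. The 12 markers summed to 15.4 CPM in WM-1119 replicate 2 of 3 days. That is above its fellow replicates (12.5 and 11.9 CPM) and below DMSO at 3 days (17.8 to 20.7 CPM). Most of these sums was Fbn1, at 10.1 CPM in that library and 15.4 to 18.0 CPM with DMSO at 3 days. Col1a1, Col1a2, Col3a1, Col5a1, Thy1 and Fn1 were each higher in that library than in any other library of 3 days. Results are given with all 12 libraries and, where a call changed, also without the 5 libraries over 1 CPM of Col1a1. This leaves 1 library against 1 at 6 days. In GENCODE 14 members share exon bases with another gene, 12 of them with a gene on the opposite strand, whose reads cannot be told apart if the counting ignored strand. Besides partners named below, Ctsd shares 808 bases with Gm49369 on the same strand. On the opposite strand Arsa shares 690 with C230037L18Rik, Npc1 511 with Rmc1, and Ctsa 495 with Pltp and 324 with Neurl2. Of these partners C230037L18Rik, Rmc1 and Neurl2 were tested, and none passed between treatments at either time. On the opposite strand Cln3 shares 442 with Apobr, Hexa 255 with Tmem202 and Lamp1 249 with Grtp1. Ppt1 shares 129 with Cap1, Grn 68 with Fam171a2 and Ctsz 10 with Nelfcd. At 3 days Nelfcd rose (0.18, edgeR adjusted p = 0.0111) and Cap1 fell (-0.12, edgeR adjusted p = 0.0336). Neither passed at 6 days, and Grtp1 was tested and passed at neither time.

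The comparison at 3 days asked which members differ after the shorter exposure. Of the 36 tested, 15 rose, 4 fell and 17 did not pass the test (edgeR quasi-likelihood test, Benjamini-Hochberg adjusted p below 0.05). Over all 11997 genes 11.8% rose and 12.7% fell, 24.4% in all. The share of members that rose was above that background, and the share that fell, 4 of 36, was near it. The median log2 fold change was 0.12 over the members and 0.0016 over all genes, and the members ranged from -0.76 (Ctsl) to 0.65 (Grn). The 3 WM-1119 libraries all lay above the 3 DMSO libraries for 16 members and below for 4, against 19.5% and 20.4% of all genes (39.9% in all). Without the 5 libraries with Col1a1, 2 WM-1119 libraries are left at 3 days. The median log2 fold change was then 0.13 over the members and -0.00096 over all genes. The 5 lost calls kept their direction, with log2 fold changes of -0.11 for Npc2, 0.18 for Tpp1, 0.15 for Neu1, 0.31 for Arsa and 0.24 for Npc1.

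At 6 days 16 members rose, 4 fell and 16 did not pass the test, against 15.7% higher and 15.1% lower over all genes, 30.8% in all. The median was 0.13 over the members and -0.0037 over all genes, with a range from -0.95 (Ctsl) to 0.61 (Grn). WM-1119 libraries lay above all DMSO libraries for 18 members and below for 6, against 21.4% and 19.9% of all genes (41.3% in all). Without the 5 libraries with Col1a1, the median log2 fold change was 0.15 over the members and -0.0030 over all genes. At 6 days 1 library a group is then left, and the test assumes that these vary like the libraries left at 3 days, so fewer calls can come from fewer libraries alone. The 7 lost calls kept their direction, with log2 fold changes of -0.23 for Npc2, 0.18 for Ctsd, 0.21 for Tpp1, 0.30 for Glb1, 0.22 for Manba, 0.33 for Lipa and 0.12 for Scarb2. Blocking on the paired numbers of 6 days gave 18 members higher and 3 lower, against 2155 higher and 2197 lower of 11729 genes. For calls that an alternative setting changed, the adjusted p under that setting stands in parentheses beside the result.

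Both times called 13 members higher (against 9.29% of all genes) and 4 lower (9.35%), and 0 in opposite directions (0.0167%). Neu1 and Tfeb passed only at 3 days and Ctsd, Hexa and Scarb2 only at 6 days, and 14 members passed at neither time. In the test of the difference between the effects at 6 and 3 days, 0 of 36 members passed, against 0.725% of all genes (0.4% with a higher and 0.325% with a lower value at 6 days), so none of these is shown to differ between the times. DESeq2 and limma voom also called 0. At an unadjusted p below 0.05 in the edgeR test there were 5 (Hexa, Glb1, Asah1, Psap and Tfeb). The share of all genes at that unadjusted threshold was not counted, so no excess is read from the 5.

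**Figure D1:**
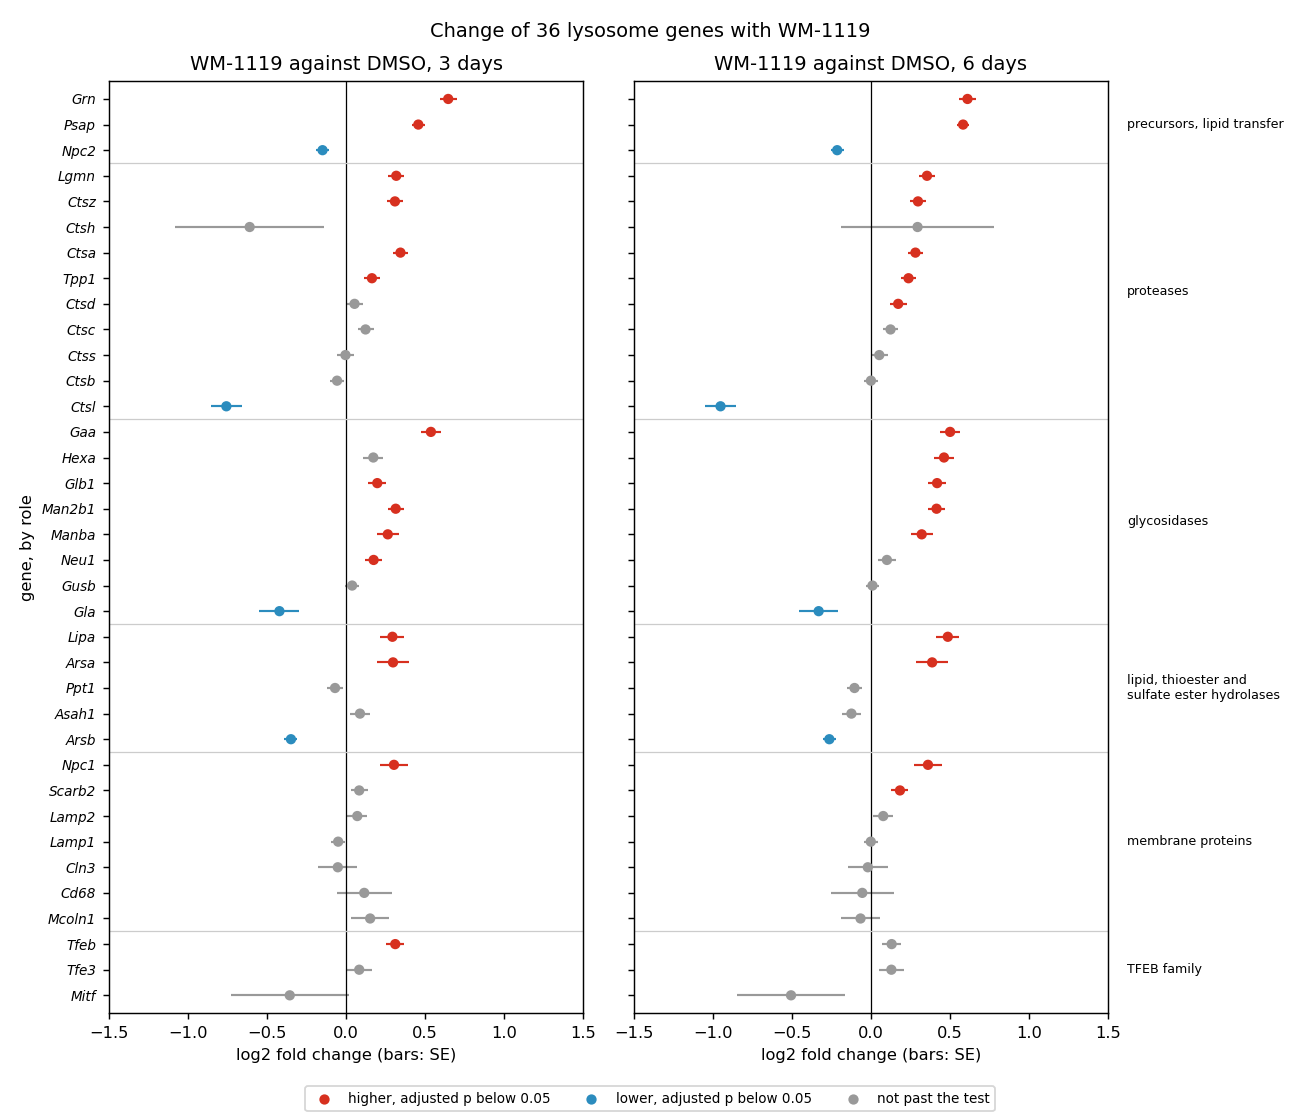
Log2 fold change with WM-1119 against DMSO (x axis, bars are SE) for the 36 tested lysosome genes, ordered by role, at 3 days (left) and 6 days (right). Red points rose, blue points fell and grey points did not pass the test; Grn lies farthest right at 3 and 6 days, and Ctsl is the lowest.

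**Figure D2:**
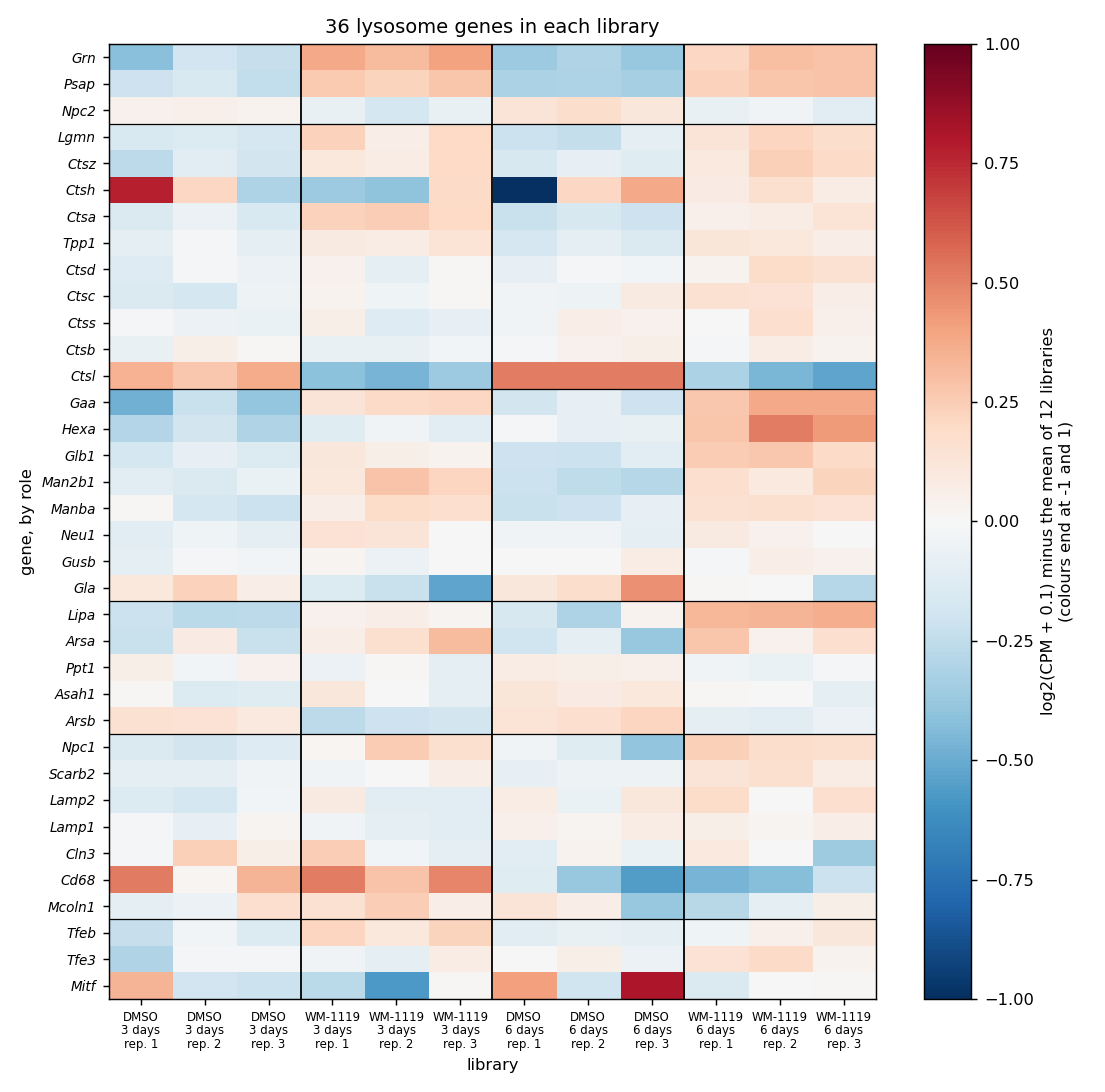
Level of each of the 36 tested genes in each of the 12 libraries, as log2(CPM + 0.1) minus the gene's mean over the libraries, with colours that end at -1 and 1. Grn, Psap and Gaa are low in all 6 DMSO libraries relative to the WM-1119 libraries of the same time, Ctsl shows the reverse, and the scattered colours of Ctsh and Mitf come from genes at 1.26 CPM or lower.

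Levels between genes were compared per kilobase of the gene length in the count table. With DMSO at 3 days Psap was the highest, at a mean level of 239 CPM per kilobase, followed by Ctsz (117), Arsb (108), Npc2 (102) and Lamp1 (92.0). Gusb (76.5), Ctss (74.6), Grn (65.4), Ctsb (65.0) and Lgmn (60.0) came next. With WM-1119 at 3 days Grn reached 102 CPM per kilobase and passed Lamp1 (88.9) and Arsb (85.0). At the low end stood Ctsh (0.351), Mitf (0.131) and Cd63 (0.0487), so the most abundant of the TFEB family was Tfeb (21.9), above Tfe3 (7.32).

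**Figure D3:**
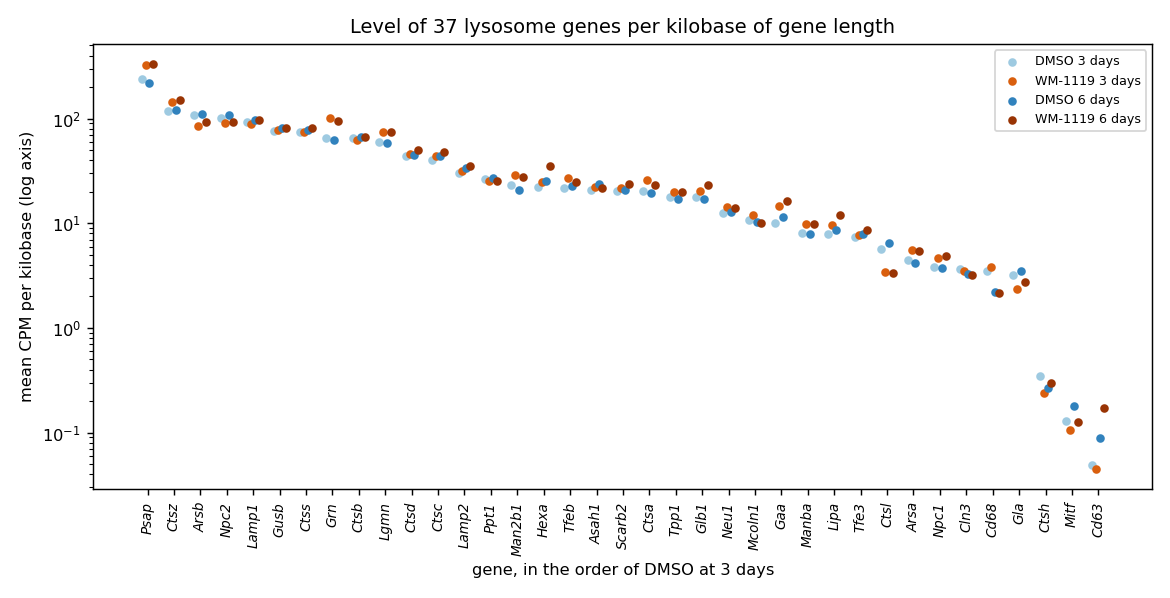
Mean CPM per kilobase of gene length (y axis, log scale) of all 37 lysosome genes in each of the 4 groups, in the order of DMSO at 3 days. Psap leads in every group, from 221 to 331, and Ctsh, Mitf and Cd63 lie lowest, below 1.

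The precursor genes Grn and Psap rose at both times, and the carrier gene Npc2 fell. Grn encodes progranulin, which is cleaved to granulins in the lysosome (chromosome 11, 102430507 to 102436809, mm10). It was at 139, 162 and 157 CPM in the DMSO libraries and 240.2, 231 and 245 CPM in the treated libraries at 3 days, and at 144, 150.0 and 142 and 213, 228 and 225 CPM at 6 days. The lowest WM-1119 library lay far above the highest DMSO library at both times. Grn rose 1.57-fold at 3 days (log2 fold change 0.65 ± 0.05, SE; adjusted p = 6.39e-09) and 1.53-fold at 6 days (0.61 ± 0.05; adjusted p = 7.83e-09). Psap encodes prosaposin, the precursor of the saposins that activate sphingolipid hydrolases and the binding partner that carries progranulin to lysosomes (chromosome 10, 60277628 to 60302600). It had 652, 676 and 633 CPM in the DMSO libraries and 904, 879 and 910.2 CPM in the treated libraries at 3 days, and 604, 608 and 597 against 882, 911 and 917 CPM at 6 days. The groups did not overlap, and both DMSO groups were tighter than the gap. Its log2 fold changes were 0.46 ± 0.04 and 0.58 ± 0.04 (adjusted p = 1.72e-08 and 1.93e-10).

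Npc2 encodes the soluble carrier that hands cholesterol to NPC1 (chromosome 12, 84754559 to 84773112). It had 332, 334 and 329 CPM in the DMSO libraries and 306, 286 and 306 CPM in the treated libraries at 3 days, and 351, 363 and 348 against 306, 314 and 297 CPM at 6 days. All WM-1119 libraries were lower, by a small margin beside the rises of Grn and Psap. Npc2 fell by 0.15 at 3 days and by 0.21 at 6 days on the log2 scale (adjusted p = 0.012 and 0.000451). The call at 3 days was lost without WM-1119 replicate 2 (0.0923) and without the 5 libraries with Col1a1 (0.124), and that at 6 days only without those 5 (0.0559). Over the 22 alternatives the adjusted p at 3 days ran from 0.00744 to 0.124, and over the 23 at 6 days from 1.66e-05 to 0.0559.

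**Figure D4:**
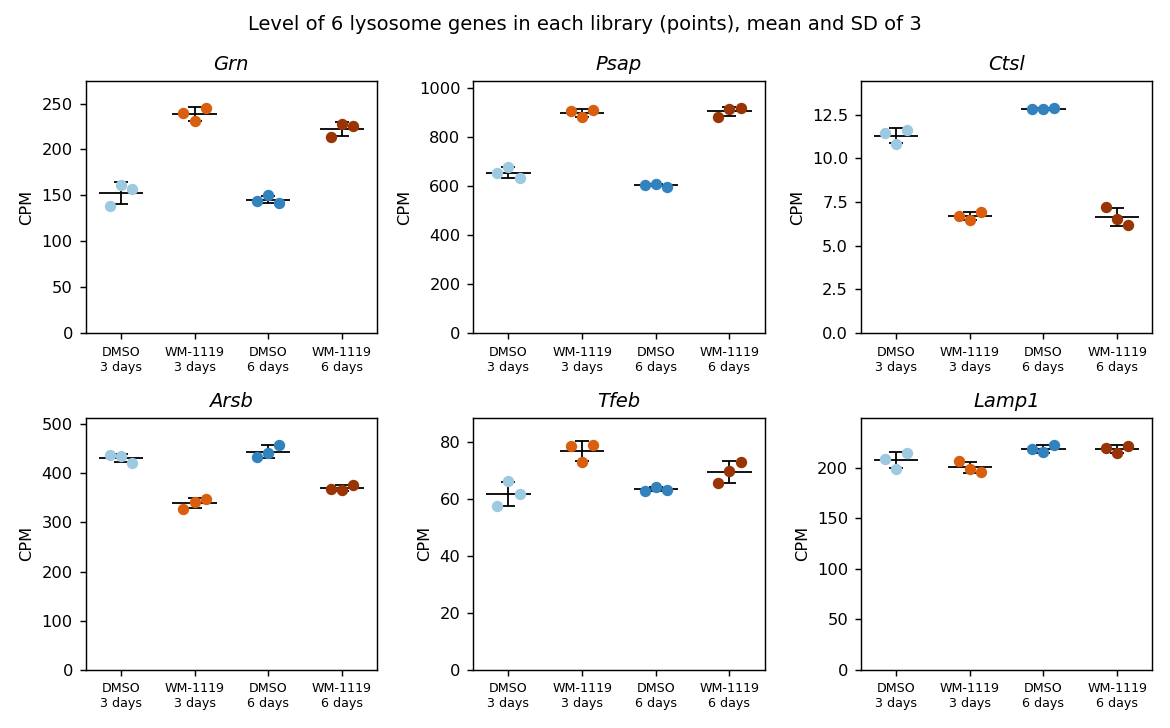
CPM (y axis, from 0) of Grn, Psap, Ctsl, Arsb, Tfeb and Lamp1 in each library (points) with the mean and SD of the 3 libraries of a group (line and bars). Groups do not overlap between treatments for the first 5 genes at either time, while the points of Lamp1 overlap at both.

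Of the 10 proteases, 4 rose, 1 fell and 5 did not pass at 3 days, and 5 rose, 1 fell and 4 did not pass at 6 days. For this and the groups that follow, the shares over all genes are 11.8% higher and 12.7% lower at 3 days and 15.7% and 15.1% at 6 days. Lgmn encodes legumain, an asparaginyl endopeptidase that processes other cathepsins and antigens (chromosome 12, 102394082 to 102439728). It had 113, 114 and 111 CPM in the DMSO libraries against 147, 131 and 144 CPM in the treated libraries at 3 days, and 108, 106 and 117 against 137, 145 and 141 CPM at 6 days, with no overlap (0.32 ± 0.05 and 0.35 ± 0.05; adjusted p = 6.22e-05 and 1.06e-05). Ctsz, a cysteine carboxypeptidase, went from 154, 172 and 163 to 199, 195 and 212 CPM at 3 days, and stood at 166, 174 and 170.3 against 198, 218 and 211 CPM at 6 days. All WM-1119 libraries lay above all DMSO libraries (0.31 and 0.30; adjusted p = 9.03e-05 and 9.48e-05). Ctsa encodes protective protein, a serine carboxypeptidase that holds β-galactosidase and neuraminidase together in a complex. It had 73.6, 78.0 and 72.9 CPM against 95.2, 96.5 and 93.5 CPM at 3 days and 69.7, 72.8 and 70.3 against 83.9, 85.5 and 89.2 CPM at 6 days. The groups did not overlap (0.34 and 0.28; adjusted p = 1.31e-05 and 0.000105).

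Tpp1, a tripeptidyl peptidase lost in a childhood neuronal ceroid lipofuscinosis, had 61.4, 64.9 and 61.7 CPM in the DMSO libraries and 69.8, 68.8 and 72.1 CPM in the treated libraries at 3 days. The later values were 58.2, 61.5 and 59.2 against 71.4, 70.6 and 68.7 CPM. The WM-1119 libraries were higher in each case, by 0.16 and 0.24 on the log2 scale (adjusted p = 0.0191 and 0.000851). The call at 3 days was lost without DMSO replicate 1 (0.0752) or 3 (0.055), without WM-1119 replicate 3 (0.0892) and without the 5 libraries with Col1a1 (0.0541), with a range of 0.00818 to 0.0892 over the alternatives. The call at 6 days was lost only without those 5 libraries (0.188, lowest 0.000317). Ctsd, the main aspartic protease, did not pass at 3 days (0.05; adjusted p = 0.51). At 6 days it had 84.7, 88.9 and 88.1 CPM in the DMSO libraries and 92.3, 102 and 100.1 CPM in the treated libraries (0.17; adjusted p = 0.0165). That call was lost without DMSO replicate 1 (0.0744), without WM-1119 replicate 2 (0.107) or 3 (0.0671) and without the 5 libraries with Col1a1 (0.232), with a lowest value of 0.00443.

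Ctsl, which encodes cathepsin L, a cysteine endopeptidase that cleaves invariant chain in thymic epithelium, had the largest fall of any member that passed (chromosome 13, 64361890 to 64370772). It was at 11.4, 10.8 and 11.6 CPM in the DMSO libraries and 6.70, 6.45 and 6.92 CPM in the treated libraries at 3 days. At 6 days the values were 12.8, 12.8 and 12.9 and 7.19, 6.5 and 6.19 CPM. The groups were far apart and the libraries within a group close together. Ctsl fell 1.69-fold at 3 days (-0.76 ± 0.10; adjusted p = 4.41e-06) and 1.93-fold at 6 days (-0.95 ± 0.10; adjusted p = 1.13e-07), and the call held in all alternatives at both times. Its exons share 1742 bases with the antisense gene Gm47123 and 395 with a pseudogene on the same strand, Gm49230, neither of which passed the filter on low counts.

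The remaining proteases passed at neither time. Ctss, the cathepsin that B cells use for the last steps of invariant chain cleavage, had 101 ± 1.90 CPM in the DMSO libraries and 101 ± 6.82 CPM in the treated libraries at 3 days (SD, n = 3 each), and 106 ± 4.003 against 110.0 ± 6.78 CPM at 6 days (edgeR adjusted p = 0.976 and 0.5). Ctsb, a cysteine protease with both endopeptidase and exopeptidase activity, had 292, 321 and 312 against 293, 293 and 303 CPM at 3 days. Its groups overlapped at 6 days too (edgeR adjusted p = 0.39 at 3 days and 0.996 at 6 days). Ctsb shares 774 exon bases with Fdft1 on the opposite strand, a sterol synthesis gene that fell (-0.54 and -0.87). If strand was ignored, reads of the shared bases could have been added to the Ctsb counts or left out of them. Ctsc, the dipeptidyl peptidase that activates granule serine proteases, differed by 0.12 and 0.12 on the log2 scale. It missed the threshold both times (edgeR adjusted p = 0.082 and 0.0661). Blocking on the paired numbers at 6 days brought Ctsc past the threshold (adjusted p = 0.0426), as did leaving out DMSO replicate 3 (0.017) or upper-quartile scaling (0.0318). It passed at 3 days with upper-quartile scaling (0.033) and without DMSO replicate 3 (0.0377), and over the alternatives its adjusted p reached 0.295 at 3 days and 0.931 at 6 days. Ctsh was near the limit of detection, at 0.171 to 0.836 CPM in all libraries, and its log2 fold changes of -0.61 ± 0.47 and 0.30 ± 0.48 had wide errors.

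Of the 8 glycosidases 5 rose and 1 fell at each time, where 11.8% of all genes rose at 3 days and 15.7% at 6 days. Gaa encodes acid α-glucosidase, which degrades glycogen and is lost in Pompe disease (chromosome 11, 119267963 to 119285458). It had 34.9, 41.7 and 37.2 CPM in the DMSO libraries and 53.3, 55.5 and 56.1 CPM in the treated libraries at 3 days, and 42.9, 45.9 and 42.2 against 58.8, 63.2 and 63.3 CPM at 6 days. The lowest treated library lay well above the highest control at each time, with rises of 1.45-fold and 1.42-fold (0.54 ± 0.06 and 0.50 ± 0.06; adjusted p = 1.69e-06 and 2.07e-06). Man2b1, the acidic α-mannosidase of glycoprotein breakdown, had 99.6, 97.7 and 103 against 116, 132 and 125 CPM at 3 days and 92.9, 90.4 and 88.4 against 121, 116 and 126 CPM at 6 days. There was no overlap (0.31 and 0.42; adjusted p = 7.42e-05 and 1.44e-06). Manba, the β-mannosidase of the same pathway, had 32.7, 28.8 and 28.03 against 34.1, 36.9 and 36.6 CPM at 3 days and 27.9, 28.2 and 30.7 against 36.2, 36.2 and 35.9 CPM at 6 days. It rose at both times (0.26 ± 0.07 and 0.32 ± 0.07; adjusted p = 0.00663 and 0.000981), and its call at 6 days was lost without the 5 libraries with Col1a1 (0.306, lowest 0.000438).

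Glb1 encodes acid β-galactosidase, which acts on GM1 ganglioside and keratan sulfate and is the enzyme behind senescence-associated staining. It had 40.6, 43.4 and 41.7 CPM in the DMSO libraries and 49.6, 47.7 and 46.8 CPM in the treated libraries at 3 days, and 39.7, 39.5 and 42.5 against 54.8, 55.2 and 52.5 CPM at 6 days. The treated libraries were higher each time (0.20 and 0.42; adjusted p = 0.0122 and 4.31e-06), and the difference between the times did not pass (0.22 ± 0.08; adjusted p = 0.365). Glb1 shares 165 exon bases with Tmppe on the same strand, which rose at 3 days (0.22, adjusted p = 0.0368) and did not pass at 6 days (0.16), and the part of shared reads in the Glb1 values was not tested. The call at 3 days was lost without DMSO replicate 1 (0.0604) or WM-1119 replicate 1 (0.0511; lowest 0.00548), and that at 6 days without the 5 libraries with Col1a1 (0.0776; lowest 2.82e-09). Neu1, the sialidase of the same complex, had 47.7, 50.0 and 48.5 against 56.9, 56.5 and 51.4 CPM at 3 days (0.17; adjusted p = 0.025) and did not pass at 6 days (0.10; adjusted p = 0.181). The call at 3 days was lost without DMSO replicate 1 (0.0898) or 3 (0.0534), WM-1119 replicate 1 (0.0906) or 2 (0.11), or the 5 libraries with Col1a1 (0.142), with a lowest value of 0.0133.

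Hexa, the α subunit of β-hexosaminidase, the enzyme lost in Tay-Sachs disease (chromosome 9, 59539540 to 59565109), passed at 6 days only. It had 40.1, 43.2 and 39.8 CPM in the DMSO libraries and 45.2, 48.0 and 45.4 CPM in the treated libraries at 3 days, which did not overlap but missed the threshold (0.17 ± 0.06; adjusted p = 0.0502). At 6 days it had 48.7, 46.4 and 46.7 against 59.5, 69.9 and 66.0 CPM and rose 1.38-fold (0.46 ± 0.06; adjusted p = 4.05e-06). The value at 3 days passed in 10 of the 22 alternatives, among them RLE scaling (0.0447), leaving out DMSO replicate 2 of that time (0.0414), and leaving out DMSO replicate 3 (0.0463) or WM-1119 replicate 1 (0.0362) or 2 (0.0393) of 6 days. Over all alternatives it ran from 0.0295 to 0.194. The difference between the times was 0.29 ± 0.09 (adjusted p = 0.215), so it is not shown that the effect grew. Gusb, β-glucuronidase, gave 188 ± 5.67 and 193 ± 5.503 CPM at 3 days and 198 ± 5.6 and 199 ± 5.44 CPM at 6 days (SD, n = 3 each; edgeR adjusted p = 0.571 and 0.888). Its log2 fold changes were 0.04 ± 0.04 and 0.01 ± 0.04.

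Gla, the X-linked α-galactosidase lost in Fabry disease, was the glycosidase that fell (chromosome X, 134588169 to 134601005). It had 9.47, 10.3 and 9.19 CPM in the DMSO libraries and 7.999, 7.54 and 6.08 CPM in the treated libraries at 3 days (-0.42 ± 0.13; adjusted p = 0.0173), and 9.54, 9.93 and 12.1 against 8.86, 8.82 and 7.21 CPM at 6 days (-0.33 ± 0.12; adjusted p = 0.0474). The groups did not overlap but lay close, above all at 6 days. At 3 days the call was lost without DMSO replicate 2 (0.0675) or WM-1119 replicate 3 (0.103; lowest 0.00892). The call at 6 days was lost in 14 of 23 alternatives. Leaving out DMSO replicate 2 (0.051) or 3 (0.187) of 6 days ended it, as did leaving out any WM-1119 library of 6 days (0.0508, 0.0524 and 0.21 for replicates 1, 2 and 3). Leaving out DMSO replicate 1 (0.0566) or 3 (0.0511) of 3 days, or replicate 2 of the WM-1119 libraries of 3 days (0.054), also ended it. It was also lost with DESeq2 (0.0622), limma voom (0.0788), upper-quartile scaling (0.0607), only the groups compared (0.0615), equal depth (0.0539) and the paired numbers as a block (0.0585), and its lowest value was 0.0213.

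Among the 5 hydrolases of lipids, thioesters and sulfate esters, 2 rose and 1 fell at each time, where 11.8% and 15.7% of all genes rose and 12.7% and 15.1% fell. Lipa encodes acid lipase, which frees cholesterol and fatty acids from lipoprotein esters (chromosome 19, 34492316 to 34527474). It had 24.2, 23.3 and 23.4 CPM in the DMSO libraries and 28.9, 29.3 and 28.6 CPM in the treated libraries at 3 days, and 25.1, 22.6 and 28.7 against 35.3, 35.6 and 36.1 CPM at 6 days. The groups did not overlap, and the 6 days WM-1119 libraries were the highest of the 12. Its log2 fold changes were 0.29 ± 0.08 and 0.49 ± 0.07 (adjusted p = 0.00613 and 2.22e-05), and the call at 6 days was lost without the 5 libraries with Col1a1 (0.0816; lowest 1.27e-07). Arsa, arylsulfatase A, which removes sulfate from sulfatide, had 14.5, 17.9 and 14.5 against 17.7, 18.9 and 21.1 CPM at 3 days, where DMSO replicate 2 lay above WM-1119 replicate 1. At 6 days it had 14.7, 15.9 and 13.0 against 20.5, 17.5 and 19.0 CPM, without overlap. It rose by 0.30 and 0.39 on the log2 scale (adjusted p = 0.035 and 0.00546). Its earlier call was lost without DMSO replicate 1 (0.152) or 3 (0.127), without WM-1119 replicate 2 (0.0715) or 3 (0.166), with equal depth (0.0918) and without the 5 libraries with Col1a1 (0.0534; lowest 0.0104). That at 6 days was lost without WM-1119 replicate 1 (0.0503; lowest 0.00178).

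Arsb, arylsulfatase B, which takes sulfate off dermatan and chondroitin sulfate, went against Arsa (chromosome 13, 93771679 to 93943016). It had 437, 436 and 422 CPM in the DMSO libraries and 328, 342 and 348 CPM in the treated libraries at 3 days, and 433, 442 and 458 against 367, 367 and 377 CPM at 6 days. Every WM-1119 library was lower than every DMSO library, and the call held in all alternatives (-0.35 ± 0.04 and -0.26 ± 0.04; adjusted p = 1.21e-06 and 3.15e-05). Arsb shares 1948 exon bases with the opposite-strand lincRNA gene Gm26527, which did not pass the filter on low counts. Ppt1, a palmitoyl thioesterase, and Asah1, acid ceramidase, did not pass at either time. At 6 days their WM-1119 libraries all lay below the DMSO libraries (68.5, 67.7 and 67.5 against 63.6, 62.0 and 64.1 CPM for Ppt1, adjusted p = 0.125). For Asah1 the values at 6 days were 54.2, 52.7 and 53.6 with DMSO and 50.2, 50.1 and 46.9 CPM with WM-1119 (adjusted p = 0.136).

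Of the membrane proteins, 1 of 7 tested rose at 3 days (14.3%, near the 11.8% over all genes) and 2 of 7 at 6 days (28.6%, against 15.7%), with 0 lower. Whether this differs from the enzymes was not tested. Npc1, the membrane transporter that exports cholesterol, had 19.96, 19.4 and 20.1 CPM in the DMSO libraries and 22.3, 26.2 and 24.7 CPM in the treated libraries at 3 days. The later values were 21.5, 20.3 and 16.7 against 26.0, 24.9 and 24.6 CPM. The treated libraries were higher in both, so the membrane partner rose (0.30 and 0.36; adjusted p = 0.0134 and 0.00279) while its soluble partner Npc2 fell. The earlier Npc1 call was lost without DMSO replicate 2 (0.0534), without WM-1119 replicate 2 (0.0952) and without the 5 libraries with Col1a1 (0.061; lowest 0.00346). Scarb2, the LIMP-2 receptor that carries glucocerebrosidase to lysosomes, had 43.0, 44.0 and 44.0 CPM in the DMSO libraries and 49.8, 51.0 and 47.9 CPM in the treated libraries at 6 days (0.18; adjusted p = 0.012) and did not pass at 3 days (0.08; adjusted p = 0.29). The call at 6 days was lost without WM-1119 replicate 1 (0.0541) or 2 (0.0767) and without the 5 libraries with Col1a1 (0.549; lowest 0.00647).

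Lamp1 and Lamp2, the heavily glycosylated proteins that make up much of the lysosomal membrane, did not pass at either time. Lamp1 had 208, 199 and 215 CPM in the DMSO libraries and 207, 199 and 196 CPM in the treated libraries at 3 days, and 218, 215 and 223 against 219.9, 215 and 222 CPM at 6 days. The groups overlapped at both times (SE of the log2 fold change 0.043 at each; adjusted p = 0.442 and 0.992). Lamp2 had log2 fold changes of 0.07 ± 0.06 and 0.08 ± 0.06, with overlapping groups (adjusted p = 0.464 and 0.386). Mcoln1, the calcium channel of the lysosome, had 0.15 ± 0.12 and -0.07 ± 0.12, and Cln3 -0.05 ± 0.12 and -0.02 ± 0.12, both with overlapping groups. Cd68, a glycoprotein typical of macrophages, was low, at 1.91 to 4.13 CPM, and did not pass between treatments at either time (adjusted p = 0.682 and 0.865). Cd63, a tetraspanin of late endosomes, stayed at 0 to 0.240 CPM.

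Tfeb, the master regulator of the CLEAR network, was itself among the members that rose at 3 days (chromosome 17, 47737037 to 47792416). It had 57.8, 66.2 and 61.7 CPM in the DMSO libraries and 78.5, 73.0 and 79.1 CPM in the treated libraries at 3 days, and the lowest WM-1119 library lay above the highest DMSO library. Tfeb rose 1.24-fold (0.31 ± 0.06; adjusted p = 0.000358), a call that held in all alternatives. At 6 days it had 63.0, 64.2 and 63.4 against 65.6, 69.9 and 73.2 CPM, still without overlap but with a smaller gap (0.13 ± 0.06; adjusted p = 0.0934). With the paired numbers of 6 days as a block it passed (0.0445), and over the alternatives its adjusted p reached 0.326. The difference between the times was -0.18 ± 0.08 and did not pass (adjusted p = 0.566). Tfe3, the paralog with the closest role, had 20.8, 25.5 and 25.5 CPM in the DMSO libraries and 25.1, 24.0 and 27.1 CPM in the treated libraries at 3 days, and 25.6, 26.8 and 24.7 against 28.4, 29.3 and 26.3 CPM at 6 days. These overlapped (0.08 and 0.13; adjusted p = 0.504 and 0.24). Mitf, best known from melanocytes and osteoclasts, was at 0.419 to 1.26 CPM in all libraries, and its differences had wide errors (-0.36 ± 0.37 and -0.50 ± 0.34 on the log2 scale). These are levels of transcript; the place of the TFEB proteins in the cell was not measured.

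Time without the inhibitor moved none of the members past the threshold. In DMSO at 6 against 3 days 0 of 36 passed, against 0.809% of all genes (0.358% higher and 0.45% lower). DESeq2 and limma voom also called 0 members. At an unadjusted p below 0.05 in the edgeR test there were 10 members. The share of all genes at that unadjusted threshold was not counted, so no excess is read from the 10. Within WM-1119, 2 members (Hexa and Lipa) rose from 3 to 6 days and 1 (Cd68) fell, against 2.33% higher and 3.29% lower over all genes, 5.62% in all. Without DMSO replicate 3 of 6 days 4 members rose, against 445 of 12086 genes. Hexa rose by 0.49 ± 0.06 (adjusted p = 8.41e-05), and its call held in all 22 alternatives. Lipa rose by 0.30 ± 0.07 (adjusted p = 0.0183), a call lost without WM-1119 replicate 2 (0.0602) or 3 (0.0684) of 3 days, without replicate 1 (0.0639), 2 (0.0602) or 3 (0.0664) of 6 days and without the 5 libraries with Col1a1 (0.132; lowest 0.00368). Cd68 fell by 0.82 on the log2 scale (adjusted p = 0.0143), from 4.11, 3.49 and 4.04 to 2.04, 2.09 and 2.45 CPM. That call was lost without WM-1119 replicate 3 of 3 days (0.0563), without replicate 1 (0.0643) or 2 (0.0598) of 6 days, with equal depth (0.0613) and without the 5 libraries with Col1a1 (0.286; lowest 0.00482). In DMSO the corresponding values for Cd68 were 4.13, 2.90 and 3.63 and 2.61, 2.17 and 1.91 CPM (-0.65; adjusted p = 0.0957).

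Summed over the 37 genes, the level was 3699 to 3818 CPM with DMSO and 4079 to 4193 CPM with WM-1119 at 3 days, and 3762 to 3830 against 4218 to 4339 CPM at 6 days. The groups did not overlap at either time. The mean difference was 397 CPM at 3 days, of which Psap gave 244 and Grn 86.2, and Arsb -92.6. At 6 days it was 490.1 CPM, with 300.3 from Psap, 76.6 from Grn and -74.0 from Arsb. Without Psap the summed differences were 153 and 189.7 CPM. In RNA from a whole culture, a change in the number of cells that express a gene and a change in its RNA per cell cannot be told apart.

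The other genes of the pathway were read from lists that share no gene with the 37. Of 32 other lysosomal hydrolases and activators tested, 14 rose and 0 fell at 3 days and 12 rose and 0 fell at 6 days, with medians of 0.14 and 0.19. Over all genes 11.8% rose and 12.7% fell at 3 days, and 15.7% and 15.1% at 6 days. Pla2g15, a lysosomal phospholipase (0.56 and 0.62), and Man2b2, a further α-mannosidase (0.36 and 0.51), rose at both times, as did the nuclease gene Dnase2a (0.38 and 0.19) and the carboxypeptidase gene Prcp (0.21 and 0.37; at 6 days lost without the 5 libraries with Col1a1, 0.0819). Of 28 other membrane proteins 7 rose and 0 fell at 3 days, and 6 rose and 1 fell at 6 days, with medians of 0.026 and 0.020; 25% were called at each time, against 24.4% and 30.8% of all genes. Slc29a3, a nucleoside transporter, rose by 0.76 and 0.80, from 24.6 ± 0.338 to 41.8 ± 1.29 CPM at 3 days (SD, n = 3 each; edgeR adjusted p = 3.22e-08). The peptide transporter gene Slc15a3 (0.39 and 0.32) and the channel gene Tpcn1 (0.25 and 0.42) rose too. Sidt2 fell at 6 days (-0.17), a call lost without DMSO replicate 1 (0.0998), WM-1119 replicate 1 (0.0928) or 2 (0.0517) or the 5 libraries with Col1a1 (0.553).

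The V-ATPase, the proton pump that acidifies the lysosome, had 4 of 18 subunit genes that rose and 2 that fell at each time, with medians of 0.0039 and 0.076. These are 33.3% called, against 24.4% of all genes at 3 days and 30.8% at 6 days. The paralogous a subunits of its membrane domain moved apart. Tcirg1, which encodes the a3 subunit, rose from 72.1 ± 3.12 to 112 ± 3.23 CPM at 3 days (0.64 ± 0.12) and by 0.58 at 6 days, a call lost with only the groups compared in the fit (0.055). Atp6v0a1, which encodes the a1 subunit, fell from 14.6 ± 1.15 to 8.28 ± 0.856 CPM at 3 days (-0.82 ± 0.10) and by 0.97 at 6 days, in all alternatives. Among 24 genes of enzyme sorting 2 rose and 3 fell at 3 days and 2 rose and 2 fell at 6 days, with medians of -0.0065 and -0.0068, or 20.8% and 16.7% called. Gnptab, whose enzyme starts the mannose 6-phosphate tag, fell (-0.22 and -0.28; at 6 days lost without the 5 libraries with Col1a1, 0.0932), and the adaptor gene Ap1g2 (0.39 and 0.43) and Cln6 (0.48 and 0.67) rose.

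Of 20 genes of mTORC1 and TFEB control 1 rose and 2 fell at 3 days and 1 rose and 3 fell at 6 days (15% and 20% called, against 24.4% and 30.8% of all genes). The Rag GTPases hold mTORC1 and TFEB at the lysosome. Rragd fell by 0.50 and 0.59 on the log2 scale, from 27.0 ± 1.74 to 19.1 ± 1.10 CPM at 3 days (SD, n = 3 each; edgeR adjusted p = 2.5e-05), and Rraga by 0.28 and 0.30. Flcn, part of the complex that activates RagC and RagD, rose at 6 days (0.25; lost without the 5 libraries with Col1a1, 0.151). Fnip1, its partner in that complex, fell at 6 days (-0.26; adjusted p = 0.0338). The Fnip1 call was lost on leaving out DMSO replicate 1 (0.151) or 3 (0.0998), WM-1119 replicate 2 (0.132) or 3 (0.0598), or the 5 libraries with Col1a1 (0.166). Of 21 autophagy genes 1 rose and 2 fell at 3 days and 2 rose and 3 fell at 6 days (14.3% and 23.8% called, both below the shares over all genes). Vps18 rose (0.50 and 0.66), and Map1lc3b, which encodes an LC3 protein, fell by 0.33 at each time (at 6 days lost without the 5 libraries with Col1a1, 0.269). In the lists of sorting, mTORC1 control and autophagy the shares that rose were below those over all genes at each time, and the lists were not tested against other genes.

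**Figure D5:**
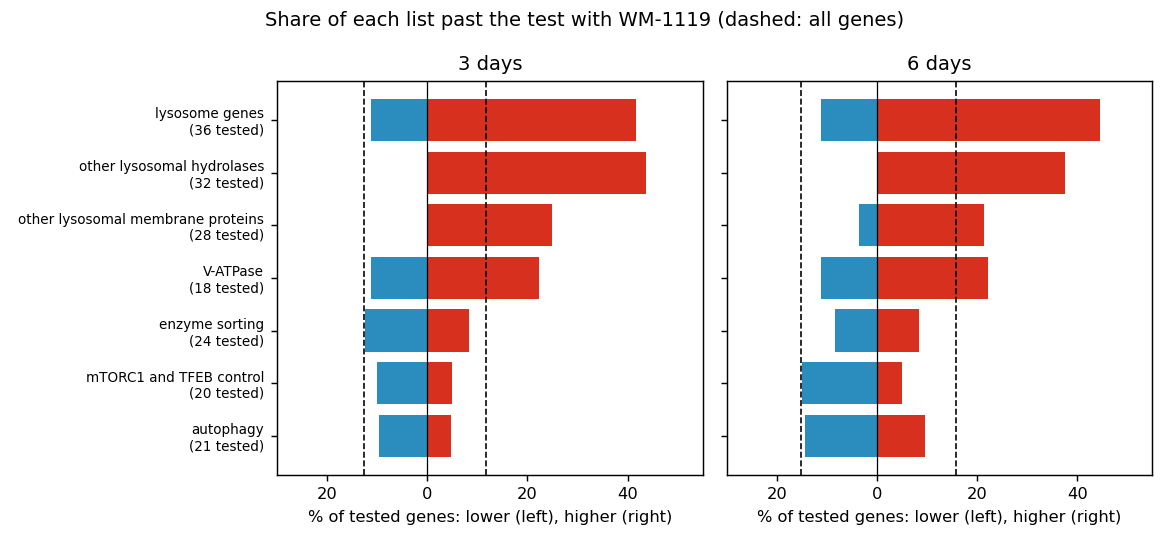
Share of the tested genes of each list that rose (right, red) or fell (left, blue) with WM-1119 at 3 and 6 days, with dashed lines at the shares over all genes. The 37 lysosome genes (36 tested) and the 32 other hydrolases reach well past the dashed line on the right, while those of enzyme sorting, mTORC1 control and autophagy end short of it.

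The culture was checked against markers of B cells and of cells rich in lysosomes. The 8 B cell markers summed to 2906 to 3122 CPM in DMSO libraries and 2999 to 3222 CPM in WM-1119 libraries, and the sum held opposite changes. At 3 days 1 marker rose and 3 fell (50% called, against 24.4% of all genes). At 6 days 2 rose and 3 fell (62.5%, against 30.8%). Cd79b, a chain of the B cell receptor complex, rose (0.50 and 0.48), while the transcription factor genes Pax5 (-0.47 and -0.58) and Ebf1 (-0.37 and -0.29) and the receptor gene Cd22 (-0.31 and -0.56) fell at both times, and Blnk rose at 6 days (0.16). Of 12 macrophage markers 2 passed the filter: Csf1r rose (2.14 and 2.25) and Mrc1 fell (-1.02 and -0.88). C1qa, C1qb, C1qc, Mertk and Marco had 0 counts in all libraries, Adgre1 3 and Lyz2 12. Msr1, below the filter, was at 0 to 0.186 CPM in DMSO libraries and 0.272 to 0.419 CPM in WM-1119 libraries. The summed level of the 12 was 55.5 to 64.6 CPM in DMSO libraries and 33.5 to 40.5 CPM in WM-1119 libraries, most of it Mrc1. Of 12 fibroblast markers 6 were tested, with 0 higher and 1 lower (Fbn1) at each time (16.7% called). The sum of the 12 was 17.8 to 34.3 CPM with DMSO and 11.7 to 52.1 CPM with WM-1119. Of 8 T cell markers Cd3d, Cd3e, Cd4 and Cd8a were at 0 counts, and Cd2, the only one tested, rose (0.55 and 0.57). The 8 summed to 51.7 to 59.2 CPM with DMSO and 73.1 to 89.5 CPM with WM-1119. Nearly all of this was Cd2 (51.4 to 59.1 and 73.0 to 89.3 CPM). The part of other cell types, or of the changes in B cell markers, in the lysosome results was not tested.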

How the data were processed

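Messenger RNA of 12 libraries was counted per Entrez gene by the authors with featureCounts on mm10, per the submitters' processing notes. The deposited values are raw counts, with a gene length in bases per the file header. For the aligner, strand setting, handling of reads with several hits and tool version, no value was given in the sources used here. Of 27179 entries, 874 without an identifier (0.305% to 0.362% of the counts) were left out, and 25275 of 26305 identifiers were matched to symbols by RefSeq. No column of values was left without a sample.

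Genes were filtered with filterByExpr by group, scaled with TMM and tested in 1 fit over all 4 groups by edgeR's quasi-likelihood test (edgeR 4.0.16, limma 3.58.1, R 4.3.3; two-sided), with Benjamini-Hochberg adjustment over 11997 genes and a threshold of 0.05. CPM values use the TMM-scaled totals. The biological coefficient of variation was 5.69%. An exact permutation test of 3 against 3 cannot go below p = 0.1, so none was run. Counting precision follows the totals, 14736267 to 41749357 counts. Replicates of a group correlated at 0.996 to 0.998 across genes, and no pair agreed within sampling noise. The script was tested on simulated data.

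The labels number the replicates alike in each group. Deviations from the group means of same-numbered DMSO and WM-1119 libraries correlated at -0.02, 0.04 and 0.006 at 3 days and at 0.19, 0.14 and 0.24 at 6 days. Pairs with unlike numbers ran from -0.06 to 0.05 at 3 days and from -0.22 to 0.06 at 6 days. The numbers were therefore taken to pair the samples at 6 days only. At that time replicates 1 and 2 of both treatments also had Col1a1 over 1 CPM, and the part of this in the correlations was not tested. The fit with a block within 6 days was added after seeing the data. Other alternatives were RLE and upper-quartile scaling, other filters, DESeq2 1.42.0, limma voom, only the groups compared, equal depth, a block over all libraries, leaving out each library, and leaving out the 5 libraries over 1 CPM of Col1a1.

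The 37 members, the lists, the tests and the alternatives were chosen with earlier results of these data known. Every member may be named. From each wider list, up to 3 genes with the smallest p in each direction among those past the threshold at either time were eligible, and from the marker lists any gene needed to describe other cell types. Promoter sequences are from RefSeq (GRCm38.p6).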

Additional observations from a re-analysis of the deposited data

How the results depend on the processing

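Of 42 calls on single members, for WM-1119 against DMSO at either time and for WM-1119 over time, 24 were kept in every alternative and 18 were lost in at least 1. For WM-1119 against DMSO, 17 values from 4 results (Hexa at 3 days, Ctsc at both times and Tfeb at 6 days) newly passed the threshold. Of the 42 calls, 0 changed direction. Leaving out 1 library gave 11 to 16 members higher and 3 to 4 lower at 3 days, and 14 to 17 higher and 3 to 4 lower at 6 days. Over all genes (12068 to 12207 tested) it gave 1036 to 1566 higher and 1131 to 1683 lower at 3 days. The ranges over all genes at 6 days were 1525 to 1923 higher and 1397 to 1884 lower. Within WM-1119 from 3 to 6 days it gave 1 to 4 members higher and 0 to 1 lower. Over all genes these were 133 to 445 and 173 to 655. It gave 0 members for the difference between the times and for DMSO over time. Without the 5 libraries with Col1a1, where 6 days keeps 1 library a group that is assumed to vary like the others, 10 members were higher at 6 days, and 1 higher and 0 lower over time in WM-1119. For that last comparison with all libraries, upper-quartile scaling called 2 members lower, the fit of only the groups compared 3, and equal depth 0. Over all genes these settings called 514 of 11997, 717 of 11633 and 431 of 11708 lower. The cause of the unlike member counts was not tested. The replicate block over all libraries gave 16 members higher and 4 lower at 3 days and 17 and 4 at 6 days. Over all 11997 genes it gave 1522 higher and 1635 lower at 3 days and 1969 and 1935 at 6 days. Within 6 days alone, where the numbers were taken to pair the samples, the block gave 18 and 3. The counts over all genes were then 2155 and 2197 of 11729. This block within 6 days is the one compared next with the main fit. It changed the calls of Gla, Ctsc and Tfeb at 6 days and no other. The fit of only the groups compared gives no value for the difference between the times. Depth limits Ctsh, Mitf and Cd63, which had 1.26 CPM or less.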
